A study of Rattus norvegicus with 4 samples.

Results

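The semaphorin, plexin, neuropilin, ephrin, Eph, Slit and Robo genes were examined in the frontal cortex of neonatal Wistar rats (Wistar Furth in the study's methods) whose dams had received bisphenol A (BPA), a plastics monomer with estrogenic activity, or vehicle during pregnancy. Members were the rows that carry a numeric NCBI Gene ID and a symbol of these families: class 3 to 7 semaphorins, plexins A to D, Nrp1 and Nrp2, ephrins A and B, Eph receptors A and B, Slit1 to Slit3 and Robo1 to Robo3. The rule returned 50 genes of the 14008 with a Gene ID, namely 19 semaphorins, 5 plexins, 2 neuropilins, 7 ephrins, 11 Eph receptors, 3 Slits and 3 Robos. By role, 29 encode ligands and 21 encode receptors. Of the 50 genes, 45 had a mean FPKM of at least 1 over the libraries, and Plxnb3, Epha1, Epha2, Slit3 and Robo3 did not. FPKM is the number of sequenced fragments per kilobase of transcript, scaled to the depth of the library, so levels are per length and can be set side by side between genes.

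The study held 4 libraries, 1 for each sex and treatment, at postnatal day 1 by the labels. Control males and control females came from dams given vehicle, and BPA males and BPA females from dams gavaged daily with 5000 µg/kg of maternal body weight from gestational day 1 until birth. The methods name pups of each sex and treatment from independent litters, but not whether a library pooled them or which litters it drew on, so each sex gave a comparison of 1 library with 1 library, without a replicate check. Where 4 values of a gene are given without labels, they stand in the order control and BPA of the males, then control and BPA of the females. Estimated depth lay between 8941250 and 9249750 fragments. Eif2s3y, a Y-linked gene, was at 52.77 and 47.18 FPKM in the male libraries and at 0.01 and 0.07 in the female ones, as their labels say. In bulk tissue, fewer cells of a type and less RNA per cell cannot be told apart.

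These families steer growing axons and migrating neurons. Secreted class 3 semaphorins bind a neuropilin that pairs with a plexin, which carries the signal, while the membrane-bound classes bind plexins directly. Ephrins are held on the cell surface and bind Eph receptor tyrosine kinases on contact, with signaling in both cells, and secreted Slits repel axons through Robo receptors. In the cortex around birth they take part in callosal crossing, thalamocortical mapping, interneuron migration and dendrite growth.

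The data showed 1 gene with a large difference, Nrp2, which was lower with BPA in both sexes, and a group of higher genes with smaller differences that was led by Epha4, which passed the test, and by Sema7a and Ephb1, which did not in the fit over all rows. On the lower side after Nrp2 came the scarcer Sema3e, Sema3d, Slit2, Slit3 and Epha10, with mean log2 ratios of the sexes from −0.58 to −0.36 that did not pass the test or, for Slit3, were too low to enter it. The promoters of 3 of the 4 leading genes are shown first, because a reader may want to see the sequence next to which the transcript levels differ. Epha4 was not among the 40 members with an entry. They are the 250 bases upstream of the gene start in RefSeq on GRCr8, a later build than the one used for mapping, written 5′ to 3′ on the gene's strand with every CG pair in capitals.
Nrp2, chr9:71617004-71617253, plus strand: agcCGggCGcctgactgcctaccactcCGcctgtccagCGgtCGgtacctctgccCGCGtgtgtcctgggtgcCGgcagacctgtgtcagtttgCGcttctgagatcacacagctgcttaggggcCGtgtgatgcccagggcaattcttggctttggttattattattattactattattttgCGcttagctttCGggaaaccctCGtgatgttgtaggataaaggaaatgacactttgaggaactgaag
Sema7a, chr8:67244068-67244317, plus strand: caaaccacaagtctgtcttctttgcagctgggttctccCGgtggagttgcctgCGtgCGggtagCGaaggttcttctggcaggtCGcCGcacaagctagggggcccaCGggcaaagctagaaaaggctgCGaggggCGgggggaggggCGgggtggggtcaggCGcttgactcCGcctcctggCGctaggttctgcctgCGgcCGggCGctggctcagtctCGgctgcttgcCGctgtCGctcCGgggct
Ephb1, chr8:111823760-111824009, minus strand: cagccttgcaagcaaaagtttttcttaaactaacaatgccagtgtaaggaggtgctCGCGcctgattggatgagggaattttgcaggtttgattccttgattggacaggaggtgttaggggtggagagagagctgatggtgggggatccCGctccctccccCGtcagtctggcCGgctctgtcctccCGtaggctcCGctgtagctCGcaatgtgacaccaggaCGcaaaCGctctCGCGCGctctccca

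The Nrp2 and Ephb1 windows held 13 CG pairs each and the Sema7a window 20, against a median of 14 over the 40 members and of 6 over the 27457 promoters of the table. The estrogen response element was searched on both strands as GGTCA, 3 bases of any kind and TGACC, and its half-site as AGGTCA, which overlaps an element that follows an A. The element was in none of the 40 member windows and in 6 of all promoters, or 0.0219%. The half-site was in 1 member window, that of Sema3g, or 2.5%, and in 13.7% of all promoters. These are counts of letters in short windows.

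**Figure D1:**
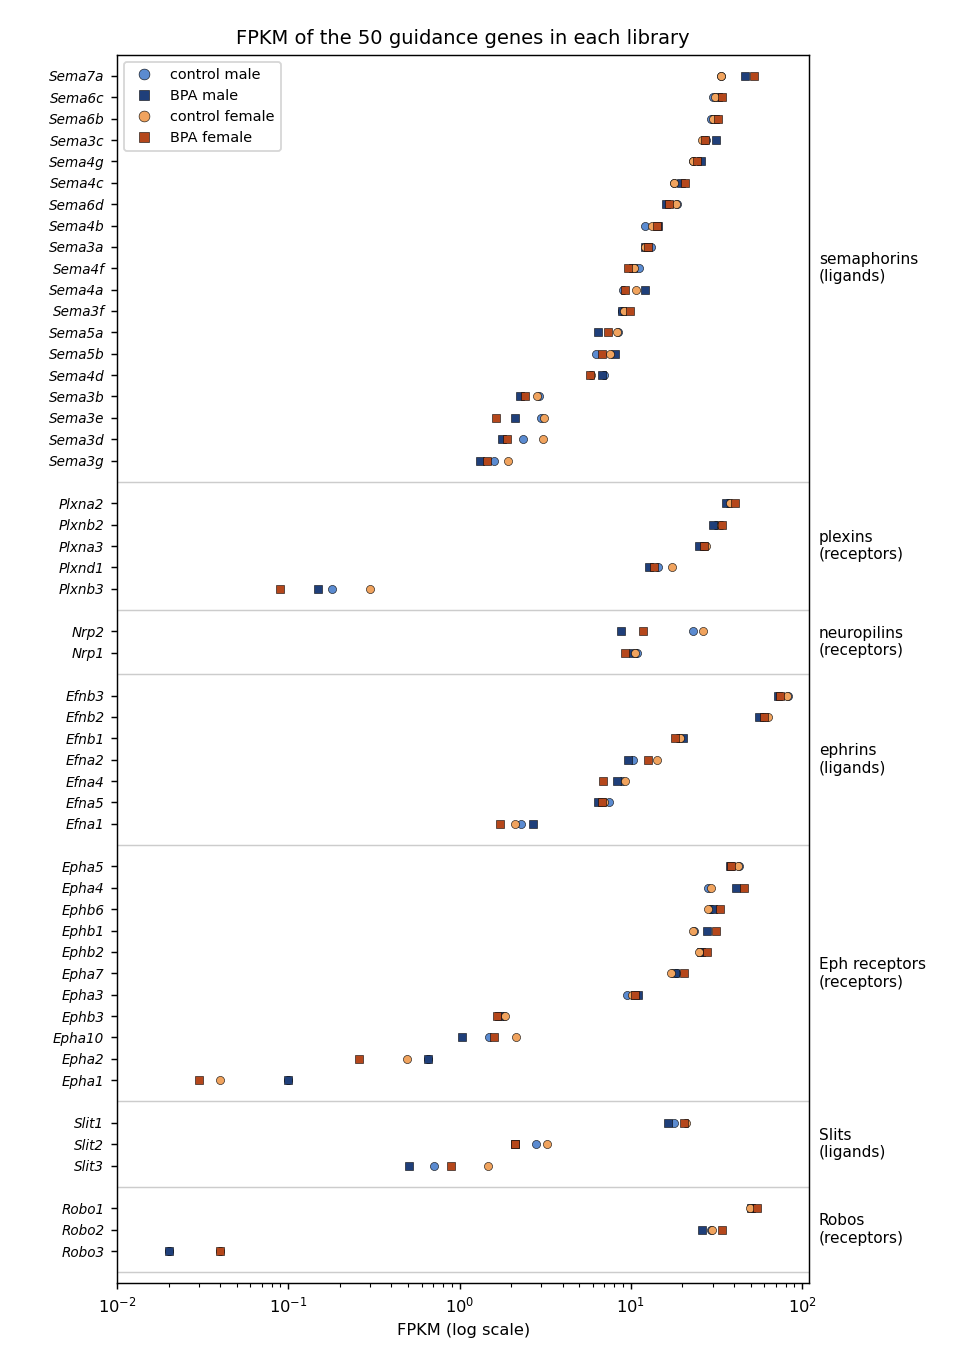
FPKM (log axis) of the 50 genes in each library, by family, with circles for control and squares for BPA libraries. Levels run from 0.02 FPKM for Robo3 to 82.37 for Efnb3, and Nrp2 is the gene of at least 1 FPKM whose circles and squares stand farthest apart.

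The levels of most genes were nearly equal between the sexes in the control libraries. Over the 45 genes with a mean FPKM of at least 1, the median absolute log2 difference between the control female and the control male was 0.0558, against 0.106 for all known genes at that level. Between BPA and control, the median absolute log2 ratio was 0.169 in males and 0.145 in females, against 0.148 and 0.150 for all known genes. Log2 ratios here and below are log2(BPA + 0.5) minus log2(control + 0.5) of FPKM, which understates the differences of scarce genes. The median difference between the sexes was larger in the BPA libraries, 0.124, than in the control libraries, a difference that was not tested.

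Among ligands, the semaphorins with the highest levels were Sema7a, Sema6c, Sema6b and Sema3c, with mean levels from 41.5 down to 28.1 FPKM. Sema7a, a membrane-anchored semaphorin that promotes axon growth through integrins, stood at 33.70 FPKM in the control male, 46.41 in the BPA male, 33.79 in the control female and 52.13 in the BPA female. The controls were nearly equal, and both BPA libraries lay above both. The log2 ratio was 0.46 in males and 0.62 in females, and the FPKM ratio was 1.38 (95% counting interval 1.26 to 1.51) and 1.54 (1.41 to 1.69). Intervals were computed from fragments estimated from the FPKM and cover counting error only. With the sexes as 2 libraries per treatment, limma on log2(FPKM + 0.5) gave 0.54 ± 0.076 (SE) with a Benjamini-Hochberg adjusted p of 0.0527, above the threshold of 0.05. It was under it with sex as a block (0.0451) and with a pseudocount of 1 (0.0496) or 5 (0.0462), and above it with a pseudocount of 0.1 (0.0585), with no filter on low values (0.152), with no trend in the prior variance (0.179) and with any 1 library left out (0.138 to 0.268).

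The class 3 semaphorins, the secreted ligands of the neuropilins, divided by level. The abundant Sema3c was at 26.7 ± 0.856 FPKM in the controls (SD, n = 2) and 29.4 ± 3.09 with BPA, and Sema3a and Sema3f were near 12 and 9 FPKM with overlapping groups. The scarce Sema3b, Sema3d, Sema3e and Sema3g were lower in both BPA libraries than in both controls. Sema3e, which acts directly on Plxnd1 in vessels and axons, was at 2.97, 2.12, 3.09 and 1.64 FPKM. Its log2 ratio was −0.41 in males and −0.75 in females, and the limma adjusted p was 0.247. Sema3d, a secreted cue for axons and endothelial cells, was at 2.36, 1.77, 3.05 and 1.90 FPKM, with log2 ratios of −0.33 and −0.56 and a limma adjusted p of 0.350. For both genes the controls lay above the BPA libraries, at a depth of 65 to 122 fragments per library. The 7 class 3 semaphorins had a median log2 ratio of −0.20 in males and −0.19 in females, where all known genes had −0.04 and −0.06.

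The transmembrane semaphorins went both ways. Of the class 4 semaphorins, Sema4b, Sema4c and Sema4g were higher in both BPA libraries. Sema4c, a ligand of Plxnb2, was at 17.89, 19.51, 17.92 and 20.83 FPKM, with log2 ratios of 0.12 in males and 0.21 in females. Sema4b was at 12.16, 14.31, 13.30 and 14.16 FPKM, with log2 ratios of 0.23 and 0.09. In these genes the lower BPA library lay just above the higher control, and the limma adjusted p was 0.326 for Sema4c and 0.411 for Sema4b. Class 6 Sema6b and Sema6c were also higher in both sexes, by log2 ratios of 0.07 to 0.14, while Sema6d (−0.21 and −0.13) and the class 5 Sema5a (−0.36 and −0.15) were lower in both. Sema4f was lower in both BPA libraries, with log2 ratios of −0.11 and −0.12, and Sema4d overlapped, with −0.04 and −0.02. The 19 semaphorins together counted 8 genes higher in both sexes, 8 lower in both and 3 with opposite signs.

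Efnb3 and Efnb2 were the most abundant ligands. Efnb3, a transmembrane ephrin of the corticospinal midline, was at 82.37, 71.88, 81.52 and 73.91 FPKM, the highest level of all 50 genes. Both BPA libraries lay below both controls, with log2 ratios of −0.20 and −0.14, and the limma adjusted p was 0.217. Of the 7 ephrins with a Gene ID none was higher in both sexes, 5 were lower in both (Efna2, Efna4, Efna5, Efnb2 and Efnb3), and all 7 were lower in females. Efna1 and Efnb1 were higher in males, with log2 ratios of 0.19 and 0.10, and lower in females, with −0.24 and −0.09. The log2 ratios of the 7 ephrins lay between −0.20 and 0.19 in males and between −0.41 and −0.04 in females, and the median over the sexes was −0.12, against −0.05 for all known genes.

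Slit1 was at 17.76, 16.38, 21.10 and 20.36 FPKM and was the most abundant Slit in every library. Its BPA and control groups overlapped, and the female libraries lay above the male ones. Slit2 was at 2.80, 2.12, 3.23 and 2.11 FPKM, so both BPA libraries were below both controls. The log2 ratios of Slit2 were −0.33 in males and −0.52 in females, with a limma adjusted p of 0.320. Slit3, under a mean of 1 FPKM, was at 0.71, 0.51, 1.46 and 0.89 FPKM, with overlapping groups and 24 to 67 estimated fragments per library. All 3 Slits had log2 ratios below 0 in both sexes.

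**Figure D2:**
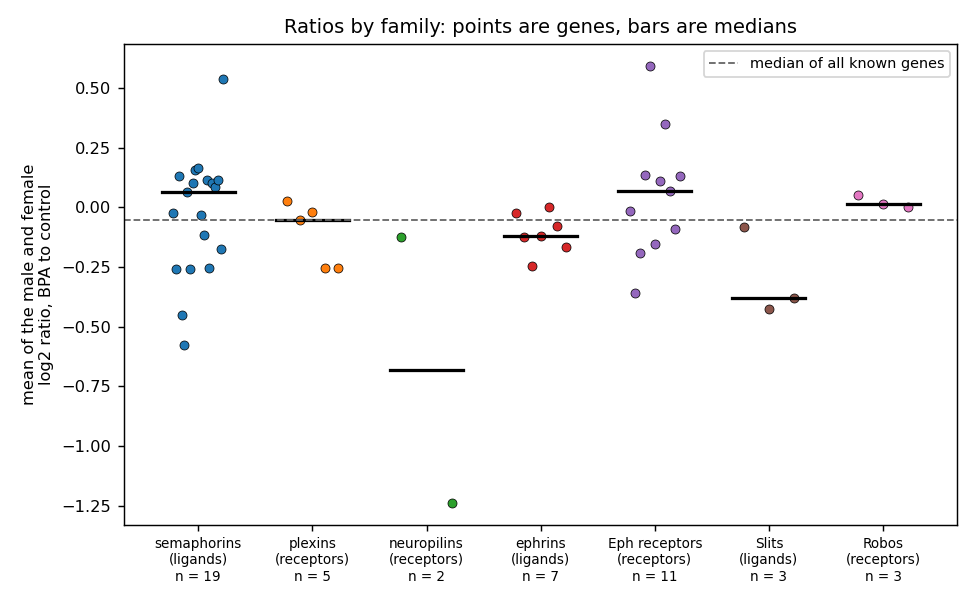
The mean of the male and female log2 ratio of BPA to control (vertical axis) for each gene, by family, with a bar for the family's median and a dashed line for the median of all known genes. Nrp2 lies far below the other 49 genes, while Epha4 and Sema7a lie above the others, and the ephrin and Slit bars are below the dashed line.

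Among receptors, Nrp2 stood apart. It encodes neuropilin-2, the binding receptor for Sema3f and Sema3c in axons and dendritic spines, and was at 23.04 FPKM in the control male, 8.71 in the BPA male, 26.21 in the control female and 11.78 in the BPA female. Both BPA libraries were below both controls by a wide margin. The FPKM ratio was 0.378 (95% counting interval 0.327 to 0.436) in males and 0.449 (0.395 to 0.511) in females, and the log2 ratio was −1.35 and −1.12. Nrp2 was the only member past an absolute log2 ratio of 1, in either sex, which is 2% of the 50 members. Over all known genes listed, 1.49% passed this size in males and 2.43% in females, so the members' share was near or below that of all genes. With limma, Nrp2 fell by 1.24 on the log2 scale (SE 0.151, adjusted p = 0.0430, n = 2 per treatment, lower in both sexes).

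The other neuropilin, Nrp1, was at 10.82, 10.29, 10.53 and 9.26 FPKM in the same order. Its BPA libraries were also below its controls, with log2 ratios of −0.07 and −0.18, and the limma adjusted p was 0.570. Nrp1 thus exceeded Nrp2 in the BPA male, whereas Nrp2 exceeded Nrp1 in both controls and in the BPA female. The neuropilin ligands Sema3f and Sema3c, which bind Nrp2, had log2 ratios of 0.00 and 0.13 (Sema3f) and 0.21 and 0.06 (Sema3c) in males and females. Of the other class 3 genes, Sema3b (−0.32 and −0.19), Sema3g (−0.20 and −0.31), Sema3d and Sema3e were lower in both sexes. Sema3a (−0.11 and 0.06) had opposite signs.

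Of the Eph receptors, Epha5 had the highest mean level, at 42.76, 37.98, 42.03 and 38.17 FPKM, with both BPA libraries below both controls and log2 ratios of −0.17 and −0.14 (limma adjusted p = 0.270). Epha4, the receptor that binds both ephrin classes and halts axons at the midline, was at 28.15 FPKM in the control male, 41.26 in the BPA male, 29.28 in the control female and 45.99 in the BPA female. Epha4 was thus below Epha5 in both controls and above it in both BPA libraries. Its FPKM ratio was 1.47 (95% counting interval 1.38 to 1.56) in males and 1.57 (1.48 to 1.67) in females. With limma, Epha4 rose by 0.59 on the log2 scale (SE 0.077, adjusted p = 0.0460, n = 2 per treatment, higher in both sexes).

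Ephb1, a receptor for ephrin-B ligands in axon crossing at the chiasm, was at 23.30, 27.82, 22.94 and 31.44 FPKM. Both BPA libraries lay above both controls, the log2 ratio was 0.25 in males and 0.45 in females, and the limma adjusted p was 0.134. Ephb6, which lacks kinase activity, and Epha3 were also higher in both BPA libraries, with log2 ratios between 0.04 and 0.22. Epha7 and Ephb2 were higher in the BPA female only, with log2 ratios of 0.24 and 0.15 there, and of −0.02 and −0.01 in males. Epha10, which also lacks kinase activity, was scarce, at 1.49, 1.03, 2.14 and 1.59 FPKM with log2 ratios of −0.38 and −0.34, and its groups overlapped, with both female libraries above the male ones. Ephb3 had log2 ratios of −0.06 and −0.12 at a mean of 1.76 FPKM. The other Eph receptors were under 1 FPKM in every library, Epha2 at 0.26 to 0.65 FPKM and Epha1 at 0.03 to 0.10.

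The plexins, which carry the semaphorin signal, had log2 ratios between −0.44 and 0.09. Plxna2 was the most abundant, at 36.90, 36.00, 38.02 and 40.51 FPKM, with overlapping groups and log2 ratios of −0.04 and 0.09. Plxna3 and Plxnb2 overlapped as well. Plxnd1, the receptor of Sema3e, was at 14.40, 12.69, 17.31 and 13.69 FPKM. Its BPA libraries were below its controls, with log2 ratios of −0.18 and −0.33 and a limma adjusted p of 0.314. Plxnb3 was listed at 0.09 to 0.30 FPKM, or 5 to 16 estimated fragments.

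Robo1 was at 51.06, 50.53, 49.93 and 54.13 FPKM, with a mean below those of Efnb3 and Efnb2 alone among the 50 genes, and its groups overlapped. Robo3 was scarce, at 0.02 to 0.04 FPKM. Robo2, the partner receptor of Robo1 in callosal and corticofugal axons, was at 29.31 FPKM in the control male, 25.95 in the BPA male, 29.60 in the control female and 34.07 in the BPA female. The 2 controls were nearly equal, the BPA male was below them and the BPA female above them. The log2 ratio of Robo2 was −0.17 in males and 0.20 in females.

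**Figure D3:**
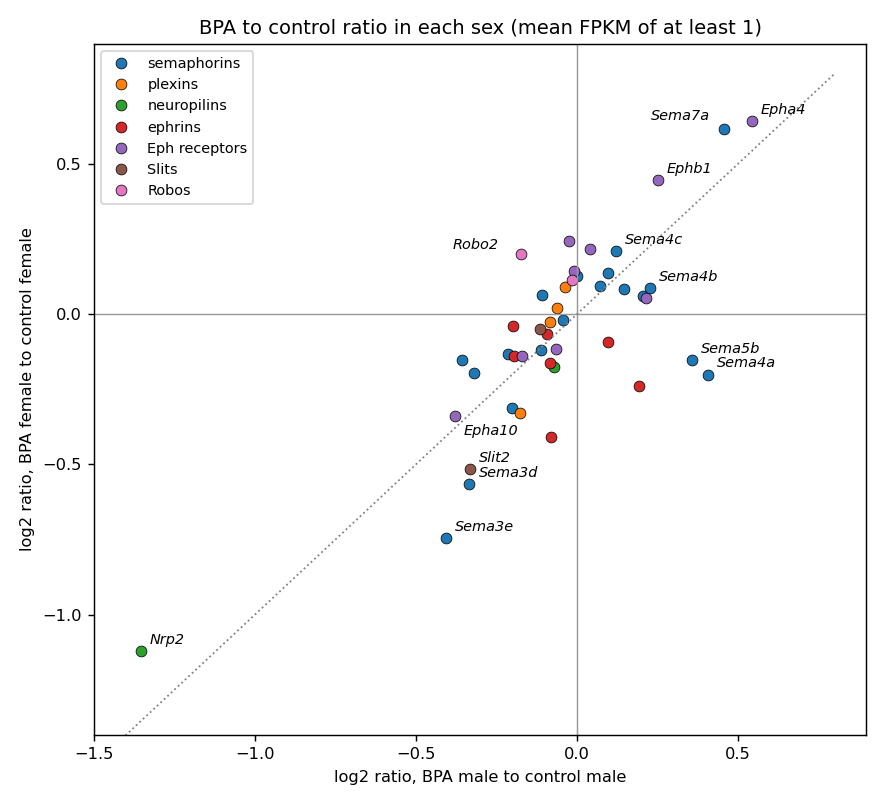
The log2 ratio of BPA to control in males (horizontal axis) and in females (vertical axis) for the 45 genes with a mean FPKM of at least 1, coloured by family, with a dotted line of equal ratios. Nrp2 is at the lower left, Epha4, Sema7a and Ephb1 are at the upper right, and Robo2, Sema4a and Sema5b lie in the quadrants of opposite sign.

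Counted over the families, 12 of the 50 genes (24%) had a ratio above 0 in both sexes, 24 (48%) below 0 in both and 14 neither, against 23.7% above and 40.5% below for all known genes listed in every library. In 10 genes (20%) both BPA libraries lay above both controls and in 17 (34%) both lay below, against 17.2% and 32.5% of all known genes listed in the 4 libraries. After scaling each library to a median log2 ratio of 0, those counts were 15 (30%) and 14 (28%), against 24.2% and 27.3% of known genes scaled likewise. At an absolute log2 ratio of at least 0.5 there were 2 members (4%) in males and 6 (12%) in females, against 9.75% and 13.1% of known genes. The members' counts at these sizes were near or below those over all genes.

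Ligands and receptors had similar medians. For the 29 ligands the median log2 ratio was −0.08 (males) and −0.12 (females), for the 21 receptors −0.04 and 0.00, and for all known genes −0.04 and −0.06. The FPKM summed over the ligands was 476.7, 482.7, 490.5 and 493.8. Summed over the receptors it was 405.0, 395.0, 412.2 and 435.4. Ligands were lower in both sexes in 16 of 29 genes and receptors in 8 of 21, and higher in both in 8 and 4.

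Across all 13163 rows with a mean FPKM of at least 1 that were listed in every library, limma with treatment as the only term called 74, or 0.562%, 14 higher and 60 lower with BPA. Of the 45 members in that fit, Nrp2 and Epha4 were called, or 4.44%. Both calls were lost when any 1 of the 4 libraries was left out, in fits with 1 residual degree of freedom that called 0 of all 13163 rows without either BPA library, 3 without the control male and 6 without the control female. The log2 values stayed between −1.44 and −1.03 for Nrp2 and between 0.52 and 0.67 for Epha4. The adjusted p of Nrp2 was 0.114 without the control male, 0.137 without the BPA male, 0.237 without the control female and 0.161 without the BPA female, and that of Epha4 was 0.174, 0.138, 0.237 and 0.211. Fitted over the 10632 known genes alone, limma called 477 genes, or 4.49%, and 4 of the 45 members, or 8.89%. The 4 were Nrp2 (adjusted p = 0.0011), Epha4 (0.0036), Sema7a (0.0051) and Ephb1 (0.0480). Leaving out 1 library there leaves 1 library in a treatment, so such fits do not check these calls. The log2 values then ranged from 0.45 to 0.62 for Sema7a and from 0.26 to 0.44 for Ephb1.

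Fragments were also compared by an exact binomial test, which sets 2 libraries and not the treatments against each other and called 13 members (26%) in males and 16 (32%) in females at a Benjamini-Hochberg adjusted p under 0.05. It called 21.9% of all rows in males and 22.4% in females. Of known genes alone it called fewer, 2477 of the 13496 listed in males and 2568 of the 13545 in females. In males 6 of the 13 were higher with BPA, and in females 9 of the 16, where 1455 of 3675 called rows in males and 1401 of 3757 in females were higher over the whole table.

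**Figure D4:**
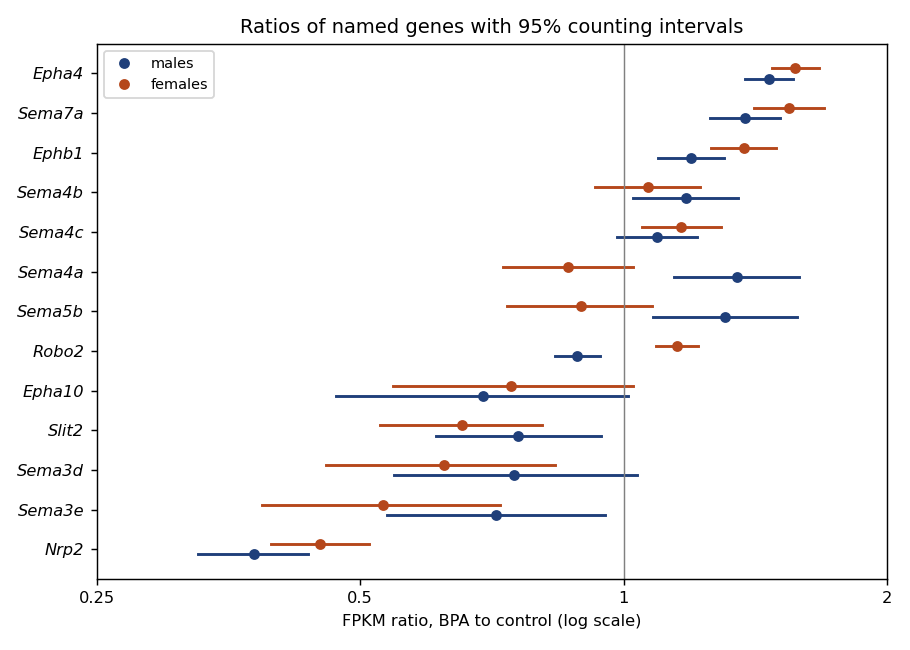
The BPA to control FPKM ratio (log axis) of 13 named genes in each sex, with 95% counting intervals. The intervals of Nrp2 end at 0.436 in males and 0.511 in females, Epha4, Sema7a and Ephb1 have intervals above 1 in both, and Robo2 has intervals on opposite sides of 1.

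The difference between the sexes in the BPA to control ratio was tested on fragments, with counting error only. Of the 46 members with at least 10 fragments in every library, 3 (6.52%) differed at an adjusted p under 0.05, against 9.54% of all rows tested. Among known genes alone, 704 of the 10788 tested differed, a share near that of the members. They were Robo2, given above, and the semaphorins Sema4a and Sema5b. Sema4a was at 8.97, 12.07, 10.67 and 9.22 FPKM, with a log2 ratio of 0.41 in males and −0.20 in females. Sema5b, a transmembrane guidance cue, was at 6.23, 8.13, 7.58 and 6.77 FPKM, with a log2 ratio of 0.36 in males and −0.15 in females. In both semaphorins the BPA male was the highest library, and the lowest was the control male.

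Signaling partners were given by a list of 60 genes, of which 59 were listed, among them collapsin response mediators, adaptors and coreceptors. None passed an absolute log2 ratio of 1, and limma called none of the 57 tested over all rows. At an unadjusted p under 0.05, limma passed 7 of them, and 2 were called over known genes alone. These were 12.3% and 3.51% of the 57, where 17.3% of all rows had an unadjusted p under 0.05 and 4.49% of known genes were called. The fragment test called 18 of the 59 (30.5%) in males and 16 (27.1%) in females, against 21.9% and 22.4% of all rows. Known genes alone, given above, had lower shares than all rows. The 2 genes called over known genes were Nck2, an adaptor of Eph receptors, and Kdr, a vessel receptor that is also among the vessel markers below. Nck2 was at 25.24, 32.08, 23.76 and 33.57 FPKM (log2 ratios 0.34 and 0.49) and Kdr at 8.06, 5.88, 10.71 and 5.77 (−0.42 and −0.84). In 12 of the 59 partners (20.3%) both BPA libraries were above both controls and in 20 (33.9%) both were below, near the 17.2% and 32.5% of all known genes. The summed FPKM of the list was 5620, 5782, 5525 and 5753.

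A further 8 genes of these families, looked up by protein name, were present only as assembled transcripts with no Gene ID and so lay outside the rule. Other names were not searched. The 3 transcripts annotated as plexin-C1, the receptor of Sema7a, summed to 34.52, 22.50, 36.36 and 24.90 FPKM. Both BPA libraries were below both controls, with log2 ratios of −0.61 and −0.54, and the lowest limma adjusted p of its transcripts was 0.148. Ephrin-A3 was at 21.16, 26.55, 19.48 and 25.49 FPKM, with log2 ratios of 0.32 and 0.38 and a limma adjusted p of 0.125. The other 6 (Sema6a, Plxna1, Plxna4, Plxnb1, Epha6 and Epha8) had log2 ratios between −0.41 and 0.34.

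Cell type markers differed between the same libraries. Of all known genes, 32.5% were lower in both BPA libraries than in both controls, and 17.2% were higher. The 10 listed meningeal and fibroblast markers, such as Col1a1 and Igf2, summed to 464.1 FPKM in the control male, 211.9 in the BPA male, 610.7 in the control female and 145.3 in the BPA female. All 10 were lower in both BPA libraries, and none had a mean below 2.655 FPKM, although the study's methods state that the meninges were removed. Vessel markers summed to 117.7, 99.8, 135.1 and 85.8 FPKM, with 5 of 7 lower in both BPA libraries than in both controls. Nrp2, Plxnd1 and the scarce Sema3d, Sema3e and Slit2 were lower in the same libraries, and the part of these cells in their values was not tested.

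Markers of olfactory bulb projection neurons also differed, with 3 of the 4 listed lower in both BPA libraries. Cdhr1, a cadherin of those neurons, was at 41.10, 10.77, 44.48 and 9.29 FPKM and moved the same way as Nrp2. The summed level of that list was 74.7, 48.1, 86.9 and 47.5 FPKM, Eomes was not listed, and Tbx21 was at 0.01 in the BPA male. Reln, the fourth gene of the list, was at 31.16, 36.96, 40.83 and 37.83 FPKM with overlapping groups and makes up most of the BPA sums. Striatal and ganglionic eminence markers summed to 143.9, 186.4, 150.5 and 192.4 FPKM, with 8 of 12 higher in both BPA libraries and 1 lower, the same libraries in which Epha4, Sema7a and Ephb1 were higher. Cortical projection neuron markers summed to 528.9, 592.3, 514.6 and 576.5 FPKM, with 3 of the 7 listed higher in both BPA libraries, and Emx1 was not listed. The part of these cell types in the values of the guidance genes was not tested.

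Astrocyte and radial glia markers summed to 775.7, 663.9, 770.9 and 560.8 FPKM, with 3 of 4 lower in both BPA libraries. The oligodendrocyte list summed to 94.0, 85.0, 104.2 and 87.5 FPKM (2 of 5 lower in both) and the microglia list to 20.7, 19.6, 20.4 and 13.6 (2 of 4 lower). In such short lists these counts are beside 32.5% of all known genes lower in both BPA libraries. Choroid plexus markers summed to between 0.94 and 3.34 FPKM in the 4 libraries, with Folr1, Kl and Ttr at the lowest listed value of 0.01 in at least 1 library. The part of these lists was not tested either.

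**Figure D5:**
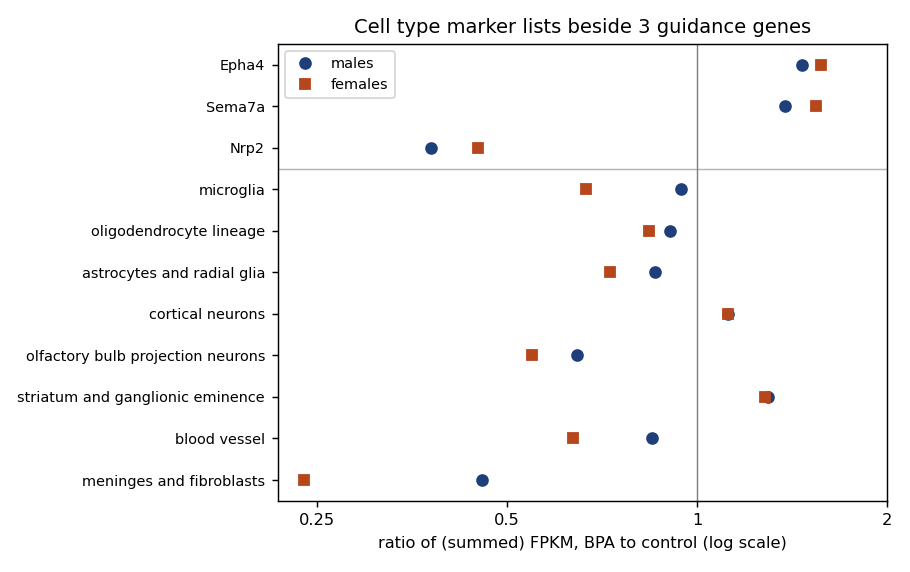
The BPA to control ratio of the summed FPKM (log axis) of 8 marker lists and the FPKM ratio of Nrp2, Sema7a and Epha4, for males (circles) and females (squares). The meningeal list is at 0.457 in males and 0.238 in females, the olfactory list at 0.644 and 0.547 with Reln included (Cdhr1 alone at 0.262 and 0.209), and the striatal list at 1.30 and 1.28.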

How the data were processed

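RNA-seq of the frontal cortex covered 4 libraries, 1 per sex and treatment. The authors selected mRNA by oligo(dT) for Illumina HiSeq sequencing, mapped reads to Rnor_6.0 (rn6) with Bowtie 2 and estimated expression with RSEM, per their methods, and the submitters' processing notes also name HISAT. Versions are not given in the sources used here. The deposited values are FPKM, which scale for transcript length and library depth. No value lies below 0.01.

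Fits and adjustments ran over all rows that passed each test's filter, of 17419, and only rows with a Gene ID were members. Members and lists were chosen with earlier results of these data known. Named in full were members past an absolute log2 ratio of 1 or called by limma, the most abundant member of each family, the 5 lowest and 5 highest of those with a mean FPKM of at least 1 and the same sign in both sexes, and those differing between the sexes. All 50 symbols matched RefSeq by Gene ID.

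The pseudocount was 0.5. limma 3.58.1 (R 4.3.3) took log2 FPKM of rows whose mean was at least 1, letting the prior variance follow the level, with 2 residual degrees of freedom, and p-values measure the spread between libraries of different sex. Depth came from the FPKM steps: FPKM times length minus 60 bases was within 0.1 of a whole number of fragments for 89.9 to 90.8% of scarce rows (20% by chance). Exact binomial tests and intervals at 95% used these fragments, and the sex difference a normal approximation on them. Scripts were tested on simulated data. Python 3.11.15 with scipy 1.17.1 was used. Alternatives changed the pseudocount, filter, rows, trend, scaling and libraries.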

Additional observations from a re-analysis of the deposited data

Results flagged for a closer look

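Of the 46 members tested, 3 had a BPA to control ratio that differed between the sexes beyond counting error. The male minus female log2 ratio was −0.38 for Robo2 (adjusted p = 1.4e-08), 0.64 for Sema4a (adjusted p = 0.0040) and 0.55 for Sema5b (adjusted p = 0.0451), from a normal approximation on estimated fragments with Benjamini-Hochberg adjustment over 13116 rows. Each rests on 1 library per sex and treatment. When libraries were also allowed to vary by a CV of 0.1 beside the counting error, a setting chosen after seeing the data, the adjusted p was 1.0 for all 3, no member (0 of 46) had an unadjusted p under 0.05, and 199 of the 13116 rows remained past the threshold.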

How the results depend on the processing

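No paired analysis by replicate number was possible because each group holds 1 library, and sex was tried as a block instead: 3 members (Nrp2, Epha4 and Sema7a) were called with sex as a term in limma, beside 0.653% of all rows, and 4 of 45 over known genes alone with sex as a term (replicate block), beside 8.24% of known genes. Of the limma count of 2 members, 1 was left with a pseudocount of 0.1, beside 0.494% of all rows. The count was 0 with no filter on low values or with no trend in the prior variance. These 2 fits called 0 rows of the whole table, so the loss was not particular to the members. In them the adjusted p was 0.152 and 0.157 for Nrp2 and 0.149 and 0.163 for Epha4. In each, 8 members had an unadjusted p under 0.05, beside 16.2% and 15.6% of all rows. Over rows with a Gene ID alone 4 members were called, beside 4.49% of known genes. Leaving out 1 library leaves 1 library in a treatment, and the log2 values of those fits are given above. Members past the size rule were 2 in males and 6 in females at an absolute log2 ratio of 0.5, beside 9.75% and 13.1% of known genes. By the fragment test they were 13 and 16, beside 21.9% and 22.4% of all rows. In females they were 2 with a pseudocount of 0.1 and 0 with a pseudocount of 5. The shares of known genes at those pseudocounts were not computed, so these 2 counts cannot be set against all genes. The 3 sex differences became 0 with a CV of 0.1 added.

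Median log2 ratios with a pseudocount of 5 were 0.0443 for the semaphorins, −0.52 for the neuropilins, −0.0743 for the ephrins and −0.0924 for the Slits. After scaling to a median of 0 they were 0.10 for the semaphorins, −0.0117 for the plexins, 0.11 for the Eph receptors and −0.0378 for the ligands. With a mean FPKM of at least 1 they were 0.11 for the Eph receptors and 0.0136 for the receptors. Leaving out 1 library, they ranged from −0.0205 to 0.0780 for the semaphorins, −0.11 to −0.0017 for the plexins, −0.75 to −0.61 for the neuropilins, −0.13 to −0.0653 for the ephrins, 0.0520 to 0.10 for the Eph receptors, −0.51 to −0.0303 for the Slits, −0.0272 to 0.0994 for the Robos, −0.0815 to −0.0385 for the ligands and −0.0505 to 0.0272 for the receptors. Log2 ratios without 1 library ranged from −0.72 to −0.43 for Sema3e and from −0.60 to −0.29 for Sema3d. They ranged from −0.51 to −0.34 for Slit2 and from −0.58 to −0.13 for Epha10. The cause of these shifts was not tested. Of 16 alternative limma fits each, Nrp2 lost its call in 6 and Epha4 in 7, and Nrp2 and Epha4 kept their direction in all 19 settings tried for each. Depth limits genes under 1 FPKM, such as Epha1 with 1 to 3 fragments per library.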
